A study of Mus musculus with 11 samples.

Results

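The methyltransferases and demethylases that add methyl groups to histones and other proteins, or take them off, were examined in germinal center B cells of mice lacking CREBBP or EP300. The members are 40 genes given by symbol. All 40 had a row in the table of 48593 genes, and all 40 had a mean normalized read count of at least 10 and were tested, among 16515 genes tested in all. The members were sorted by what their proteins do into writers (methyltransferases) and erasers (demethylases) of lysines 4, 9, 27, 36 and 79 of histone H3, SMYD methyltransferases, arginine methyltransferases and a JmjC hydroxylase.

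Histone lysine methylation is placed by enzymes with a SET domain (Dot1l, which has a different fold, is the exception) and removed by amine oxidases of the LSD1 type or by JmjC dioxygenases. Methylation of H3K4 marks promoters and enhancers, H3K9 methylation marks silent chromatin, H3K36 and H3K79 methylation accompany transcription, and H3K27 methylation is the Polycomb mark. CREBBP (CBP) and EP300 (p300) are related lysine acetyltransferases of enhancers and promoters. In germinal centers KMT2D, an H3K4 writer of enhancers, and CREBBP are known as frequent targets of mutation in human B cell lymphoma, and the H3K4 eraser KDM1A is known as a partner of BCL6.

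Spleen cells that were B220+ and CD95+ and bound the lectin PNA were sorted 12 days after mice received sheep red blood cells by injection into the peritoneum. Every group carried a single Cg1cre allele, which expresses Cre from the immunoglobulin Cg1 locus, so that deletion depends on activity of that locus. The 5 WT libraries (WT_4, WT_7, WT_41, WT_46 and WT_288) were Crebbp+/+;Ep300+/+;Cg1cre/+, from crosses of Crebbp+/- mice. The 3 CBP-KO libraries (CBP-KO_1, CBP-KO_53 and CBP-KO_55) were Crebbpfl/fl;Ep300+/+;Cg1cre/+, and the 3 p300-KO libraries (p300-KO_18, p300-KO_287 and p300-KO_289) were Crebbp+/+;Ep300fl/fl;Cg1cre/+. The labels name no WT littermates of the p300-KO mice, so cross and loss of Ep300 cannot be told apart. They give no sex, age, litter or batch, and do not state that each library is a separate animal. The p values therefore measure the spread between these libraries, which may be technical in part.

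Depth ran from 53550726 to 132861266 reads per library. Ep300 stood at 21268 ± 1276 (SD, n = 5) normalized counts in WT and 14466 ± 600.4 (n = 3) in p300-KO (log2 fold change -0.55, limma adjusted p = 0.00015). Crebbp stood at 8866 ± 743 in WT and 8247 ± 612 in CBP-KO (log2 -0.10, adjusted p = 0.459). Counts per gene can include reads from undeleted exons, and neither reads per exon nor the extent of deletion was examined. The Crebbp count therefore does not check the CBP-KO labels, and why it did not pass the test was not tested. Xist was high and Y-linked transcripts nearly absent in 6 libraries, the reverse held in 4 (WT_41, WT_288, CBP-KO_1 and p300-KO_287), and p300-KO_18 held both. All 10 germinal center B cell markers were measured, with a summed level between 766233 and 897255 in every library. Of these 10, 2 were lower in CBP-KO, 1 was higher and 1 lower in p300-KO, and 2 were lower in CBP-KO than in p300-KO. The summed level of 12 macrophage markers ran from 3526 to 9570 in WT, with the highest sum in WT_46, from 1977 to 2899 in CBP-KO and from 2422 to 3271 in p300-KO, and 4 of the 10 tested were lower in CBP-KO and 1 in p300-KO. That of 7 dendritic cell markers ran from 4319 to 5730.3 in WT, 2964 to 3489 in CBP-KO and 2635 to 2788 in p300-KO, with 1 of 4 tested lower in each knockout. Flt3 made up most of these sums, at 4141 to 5407 in WT, 2876 to 3379 in CBP-KO and 2512 to 2631 in p300-KO. No other dendritic cell marker exceeded 205 in any library. Zbtb46 had a higher mean in p300-KO (74.1, against 47.6 in WT) without passing the test. Mpeg1 was the largest part of each macrophage sum. Of 6 plasma cell markers, 3 of the 5 tested were higher in p300-KO, with sums from 68255 to 81273 against 52903 to 62833 in WT, and 1 was lower in CBP-KO. Jchain was the largest part of each plasma cell sum. Of 7 stromal and endothelial markers (sums from 15062 to 28017, Col1a2 at 0), 2 of the 4 tested were lower in CBP-KO and 1 was higher in p300-KO. Nearly all of each sum was Cr2, from 10486 to 23752, and Pecam1, from 2812 to 4904. Every other marker of that list stayed at or below 163 in every library. Of the erythroid markers 1 of 4 tested was lower in p300-KO, with sums from 89.6 to 295 against 278 to 533 in WT. T cell markers summed to at most 379 in any library, with 1 of 5 lower in CBP-KO, and 4 of 5 neutrophil markers (S100a8, Ly6g, Mpo and Elane) were at 0 throughout. The part of these cells in the results below was not tested. In bulk RNA, fewer cells of a type and less RNA per cell cannot be told apart.

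Promoter sequence is shown for 4 members that rose or fell: Kdm5b and Smyd2, which were higher in both knockouts, Kmt2c, which was higher in p300-KO, and Setdb2, which was lower in both. RefSeq promoter windows (build GRCm38.p6) matched 28 of the 40 members. Each sequence below is the stretch before the start site that holds no annotated exon, written 5′ to 3′ on the gene's strand. Capitals mark, on either strand, the CRE core TGACG, the CCAAT box CCAAT, the GC box GGGCGG and the ETS core CCGGAA.
Kdm5b, chr1:134559928-134560170, plus strand: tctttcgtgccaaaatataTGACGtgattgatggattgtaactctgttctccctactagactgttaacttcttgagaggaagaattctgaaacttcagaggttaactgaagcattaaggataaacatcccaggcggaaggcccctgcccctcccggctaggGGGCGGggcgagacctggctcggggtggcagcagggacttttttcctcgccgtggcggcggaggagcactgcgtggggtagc
Smyd2, chr1:189922364-189922541, minus strand: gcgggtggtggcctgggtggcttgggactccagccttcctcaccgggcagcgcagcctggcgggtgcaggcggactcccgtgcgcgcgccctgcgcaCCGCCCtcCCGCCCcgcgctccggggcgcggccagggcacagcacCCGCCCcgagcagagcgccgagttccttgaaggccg
Kmt2c, chr5:25498784-25499033, minus strand: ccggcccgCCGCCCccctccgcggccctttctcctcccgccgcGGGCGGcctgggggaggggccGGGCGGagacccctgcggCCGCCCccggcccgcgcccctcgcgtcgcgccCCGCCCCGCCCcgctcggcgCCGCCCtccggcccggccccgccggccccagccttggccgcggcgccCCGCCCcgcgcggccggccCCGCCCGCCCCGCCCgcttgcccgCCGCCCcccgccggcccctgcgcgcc
Setdb2, chr14:59441023-59441130, minus strand: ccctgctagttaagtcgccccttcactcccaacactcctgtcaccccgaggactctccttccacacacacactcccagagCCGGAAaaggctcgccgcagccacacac

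The 4 stretches differ in base content. The Kmt2c stretch is 91.6% G and C, with 48 CpG pairs in 250 bases and 12 GC boxes, some of which overlap. That of Smyd2 is 78.1% G and C, with 3 GC boxes in 178 bases, and that of Kdm5b 54.3%, with 1 GC box and 1 CRE core in 243 bases. Setdb2 has 1 ETS core in 108 bases. The stretches begin 250 bases before the start and end at different distances from it: 1 base for Kmt2c, 8 for Kdm5b, 73 for Smyd2 and 143 for Setdb2. In its whole 250 bases Setdb2 also has 2 CCAAT boxes, and Smyd2 has 1 CRE core. Over the whole 250 bases before the start, the GC box is in 25 of 37 windows of members (67.6%) and in 32.7% of 32851 windows of all genes. The CRE core is in 35.1% of the members' windows and 17.8% of all, the ETS core in 24.3% and 12.0%, and the CCAAT box in 32.4% and 33.8%. The full CRE, TGACGTCA, which contains that core, is in 2.70% and 1.55%. Matches were sought on both strands and describe letters in these windows, not binding. The 37 windows belong to 28 members, and some members, such as Kdm2b and Kdm3a, have more than 1. The 32851 windows cover 27025 genes, beside 16515 genes tested here. Shares over windows of tested genes alone were not computed.

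Levels were compared between genes per kb of merged exon. In WT, Ehmt2 (G9a, an H3K9 writer) was highest at 4073 ± 113 normalized counts per kb (SD, n = 5), followed by Kmt2a (MLL1, an H3K4 writer) at 3751 ± 689 and Prmt1, the main enzyme of asymmetric arginine methylation, at 2919 ± 214. Ehmt2 and Kmt2a differed by less than the SD of Kmt2a. The lowest was Kdm5b at 13.6 ± 5.20 per kb, below Smyd3 at 128 ± 11.8, Setd1b at 160 ± 16.8 and Smyd2 at 260.1 ± 21.3. Of these 4 lowest members, Kdm5b, Setd1b and Smyd2 had the largest log2 fold changes of all members in p300-KO. In p300-KO the level per kb was 58.1 ± 6.14 for Kdm5b and 568 ± 40.1 for Smyd2, and Kdm5b was still the lowest member.

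**Figure D1:**
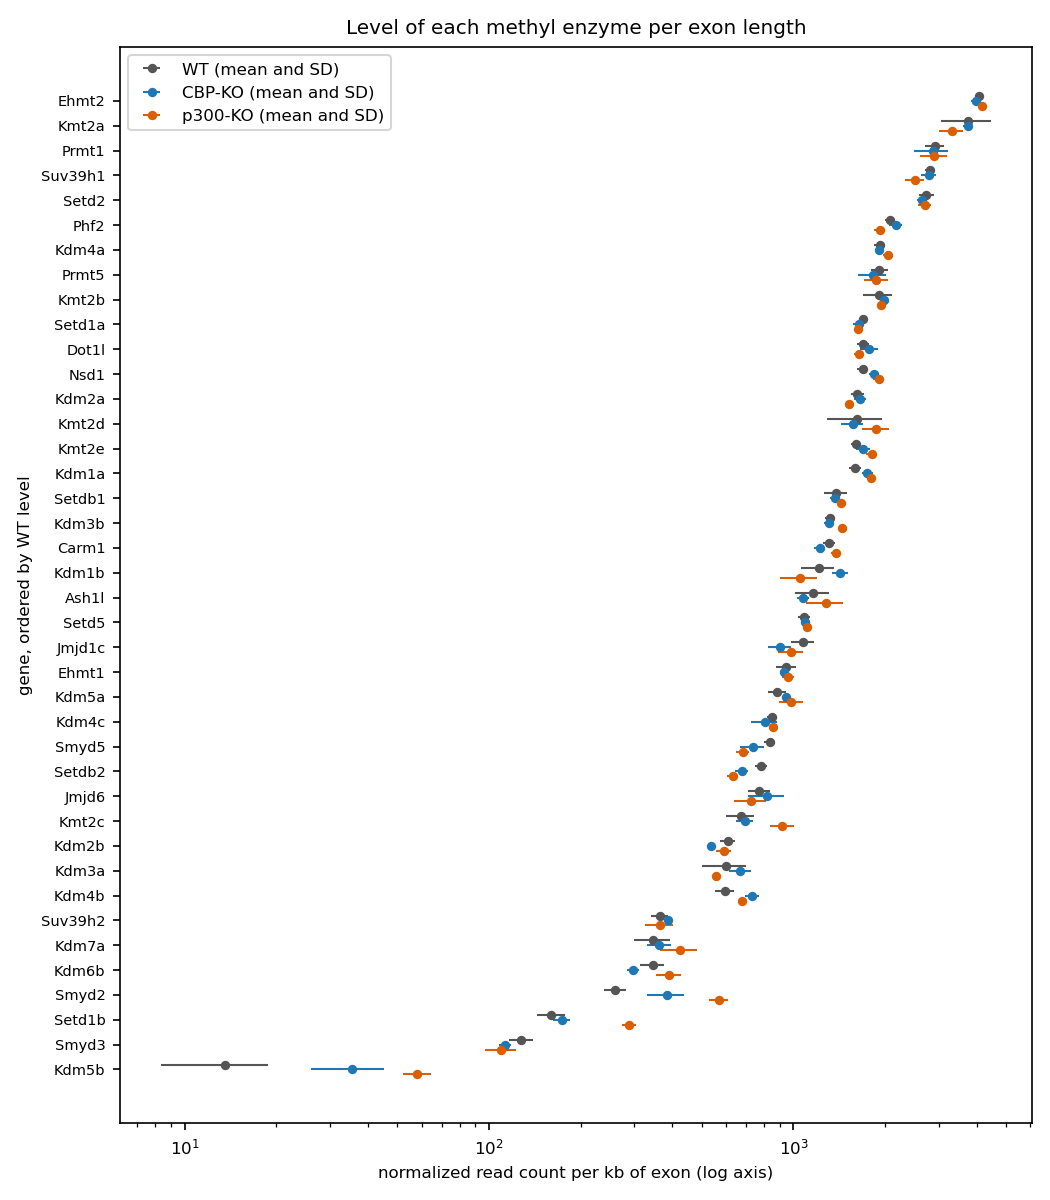
Normalized read count per kb of merged exon for the 40 members, on a log axis, ordered by the WT mean; points are group means and bars the SD over 5 WT, 3 CBP-KO and 3 p300-KO libraries. Kdm5b is lowest in every group, and its knockout means, 35.6 and 58.1 per kb, lie to the right of the WT mean of 13.6.

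In CBP-KO against WT, 4 of the 40 members (10%) passed the test, beside 8.36% of all genes tested. Of these, 3 were higher (Kdm5b, Smyd2 and Kdm4b, beside 3.48% of all genes) and 1 was lower (Setdb2, beside 4.88%). In p300-KO against WT, 9 members (22.5%) passed, beside 11.9% of all genes. There 7 were higher (Kdm5b, Smyd2, Setd1b, Kmt2c, Kmt2e, Kdm1a and Nsd1, beside 5.84%) and 2 were lower (Setdb2 and Smyd5, beside 6.09%). Between the knockouts 5 members (12.5%) passed, beside 9.42% of all genes, with Setd1b, Smyd2, Kmt2c and Kdm6b lower in CBP-KO (beside 4.63%) and Kdm1b higher (beside 4.79%). The median log2 fold change of the members was 0.00 in CBP-KO, 0.03 in p300-KO and -0.05 between the knockouts, beside 0.01, -0.01 and 0.00 over all genes. The 2 comparisons with WT share the same 5 WT libraries. The number of members past the test in p300-KO fell to 5 without p300-KO_287, and that in CBP-KO to 2 without CBP-KO_53. Between the knockouts it fell to 3 without CBP-KO_1, CBP-KO_53, CBP-KO_55, p300-KO_18 or p300-KO_287.

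**Figure D2:**
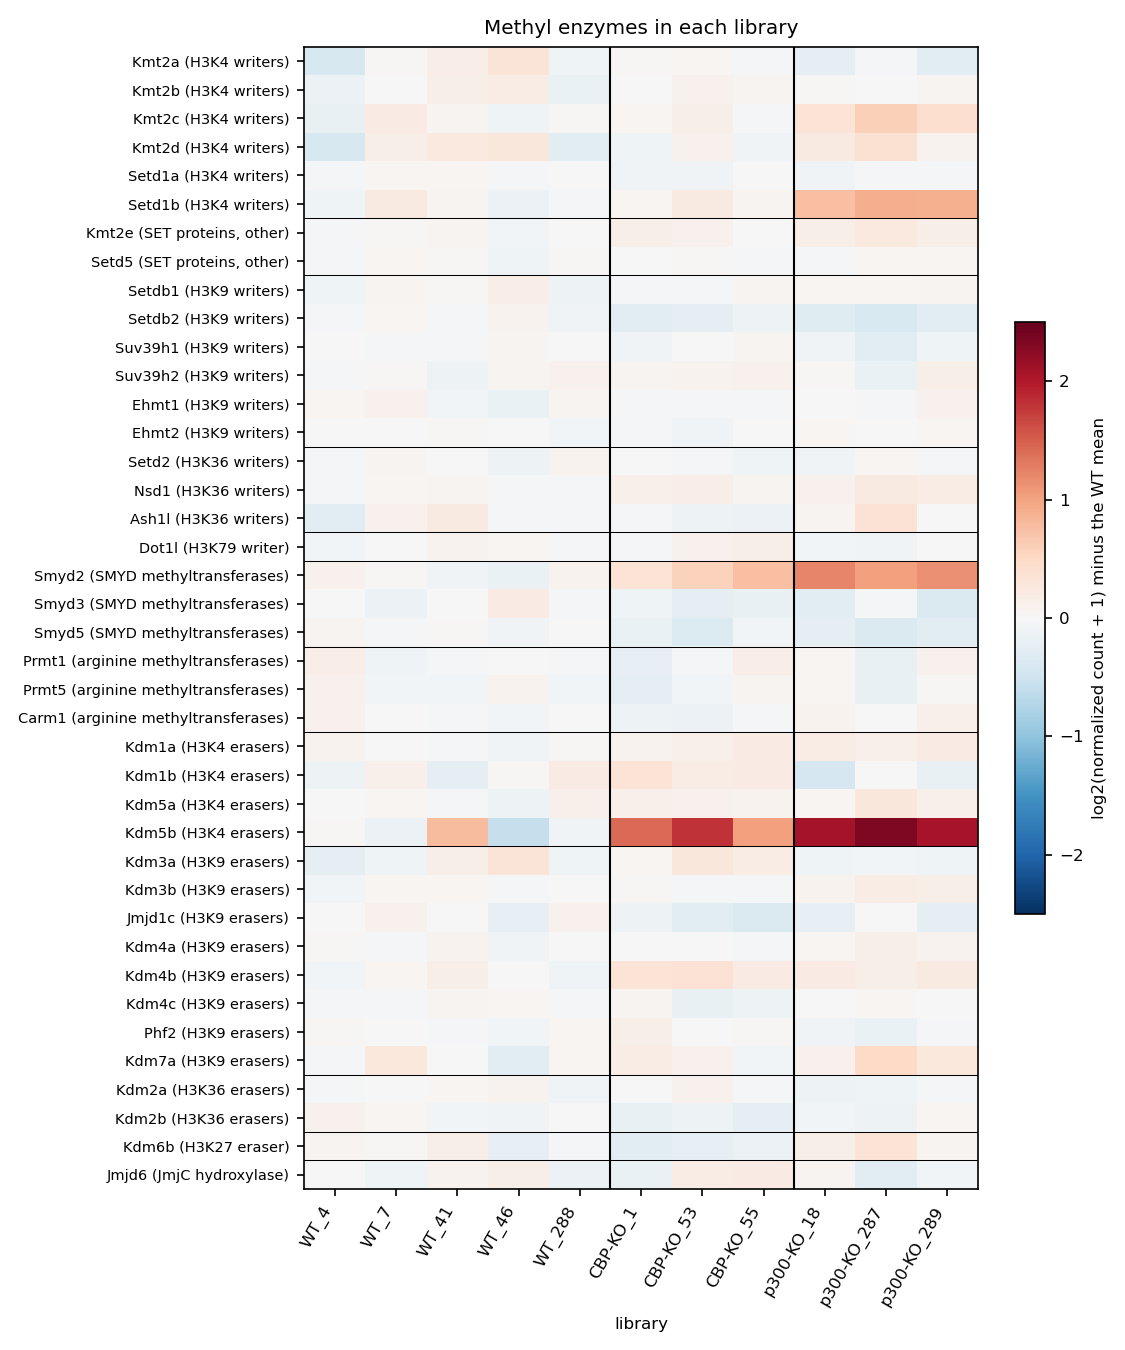
Each row is a member, grouped by role, and each column a library; colour is log2(normalized count + 1) minus the WT mean of that gene. Kdm5b and Smyd2 are red in all 6 knockout libraries, and Setd1b and Kmt2c in the 3 p300-KO libraries, while Setdb2 is blue in all 6.

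**Figure D3:**
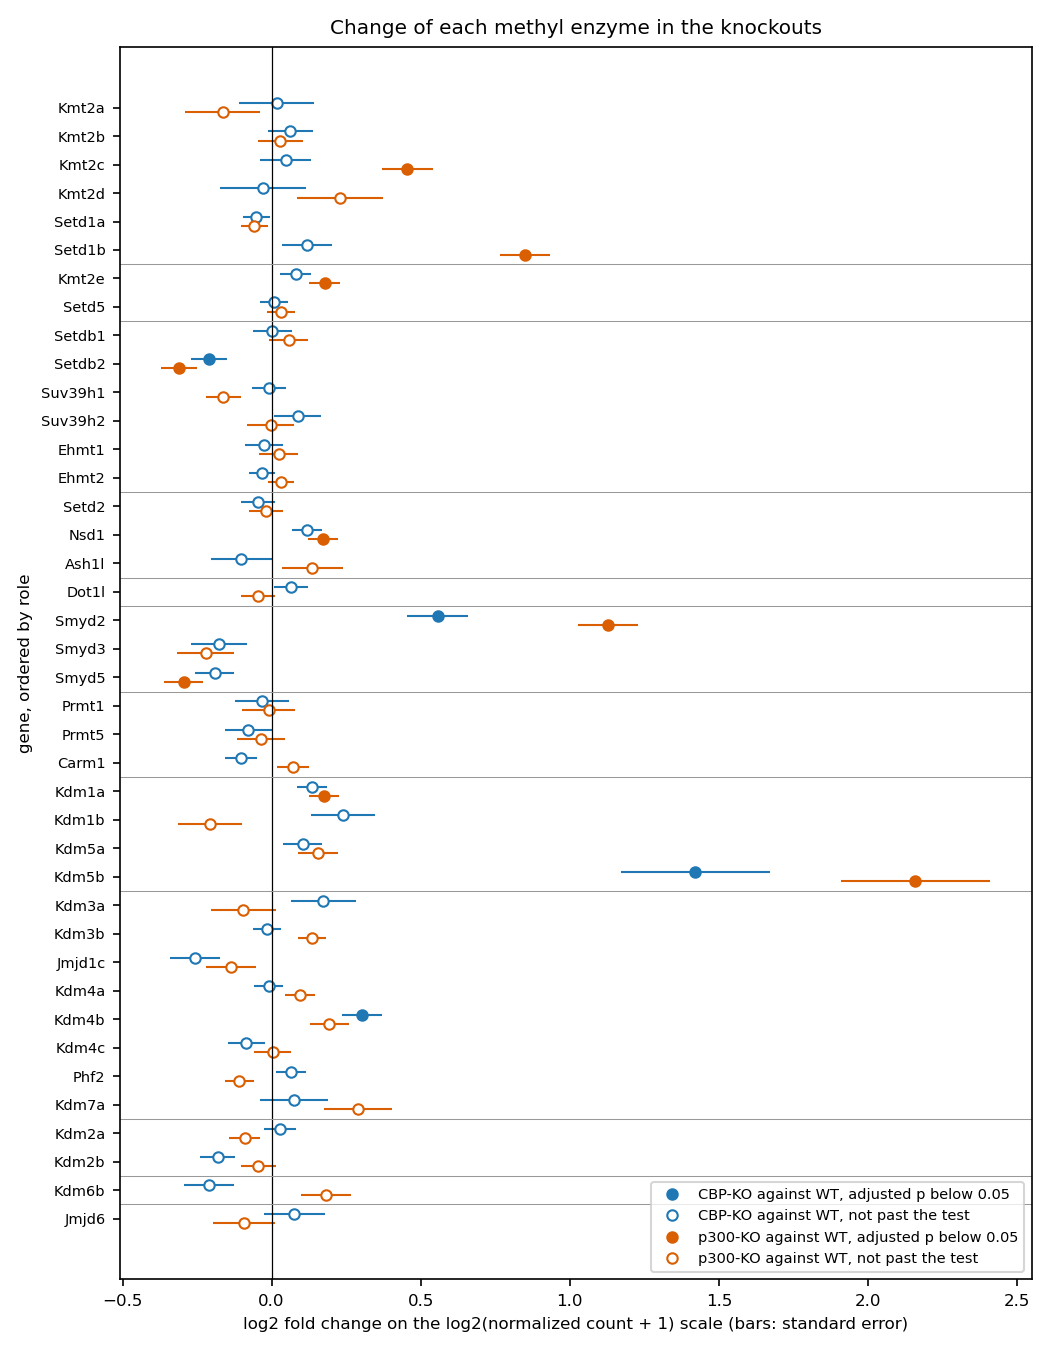
Log2 fold change of each member against WT on the log2(normalized count + 1) scale, with its standard error; filled points have an adjusted p below 0.05. Kdm5b lies furthest from 0 in both knockouts, at 1.42 in CBP-KO and 2.16 in p300-KO.

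Among the 6 H3K4 writers, Setd1b and Kmt2c were higher in p300-KO and none passed in CBP-KO (limma; 0 had an unadjusted p below 0.05, and edgeR and DESeq2 also called 0). Setd1b encodes the catalytic subunit of a COMPASS complex that places H3K4 trimethylation. Its normalized count was 1788, 2248, 2008, 1742 and 1891 in WT_4, WT_7, WT_41, WT_46 and WT_288, then 2001, 2247 and 2033 in CBP-KO_1, CBP-KO_53 and CBP-KO_55, and 3267, 3612 and 3548 in p300-KO_18, p300-KO_287 and p300-KO_289. The p300-KO libraries all lay above the other 8, and CBP-KO lay within the WT range. The change was 0.85 ± 0.08 (log2, SE) in p300-KO (adjusted p = 8.2e-05) and 0.12 in CBP-KO (95% interval -0.06 to 0.30, adjusted p = 0.462), and CBP-KO was lower than p300-KO by -0.73 ± 0.09 (adjusted p = 0.000573). Among the Xist-high libraries, the mean count was 1926 in 3 WT, 2139.8 in 2 CBP-KO and 3548 in 1 p300-KO library, and among the Y-high libraries 1949 in 2 WT, 2001 in 1 CBP-KO and 3612 in 1 p300-KO library.

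Kmt2c (MLL3), the close relative of Kmt2d that places H3K4 monomethylation at enhancers, followed the same order at a smaller size. It stood at 11979, 15516, 14275, 12498 and 13761 in the WT libraries in the order above, at 14006, 14900.3 and 13133 in CBP-KO, and at 17187, 20471 and 18194 in p300-KO. Again the 3 p300-KO libraries lay above every other library. The change was 0.45 ± 0.09 in p300-KO (adjusted p = 0.00466) and 0.05 in CBP-KO (95% interval -0.14 to 0.23). The difference between the knockouts was -0.41 ± 0.10 (adjusted p = 0.0188), with an adjusted p of 0.0817 without CBP-KO_55 and 0.0742 without p300-KO_287.

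The other 4 H3K4 writers (Kmt2a, Kmt2b, Kmt2d and Setd1a) passed in no comparison. Exons of 9430064I24Rik and Gm49388 overlap 52.3% of the exon length of Setd1a, the largest share of any member. Kmt2d stood at 32269 WT counts with a p300-KO change of 0.23 (95% interval -0.08 to 0.54), and Kmt2a at -0.16 (-0.44 to 0.11). The WT libraries differed widely in both. Kmt2d ran from 23855 in WT_4 to 38373 in WT_46 and Kmt2a from 46631 in WT_4 to 76605 in WT_46, a WT coefficient of variation of 20.6% and 18.4%. Genes of similar mean had a median of 6.09% and 5.97%. Over all 11 libraries the log2 levels of Kmt2a and Kmt2d had a Pearson correlation of 0.57 and a Spearman correlation of 0.55, given as a description of libraries that differ in depth and genotype. The SET proteins Kmt2e (MLL5) and Setd5, for which a histone methyltransferase activity is not established, had small changes. Kmt2e was higher in p300-KO (16710.4 ± 604 in WT, 18907 ± 805 in p300-KO, log2 0.18, adjusted p = 0.041), with WT libraries at 16187, 17017, 17491, 16027 and 16829 and p300-KO at 18457, 19837 and 18428. CBP-KO, at 18369.5, 18031 and 16628, overlapped WT and lay under all p300-KO libraries (log2 0.08, adjusted p = 0.399). The exons of Kmt2e overlap those of Srpk2 over 9.31% of their length. The p300-KO call of Kmt2e was lost in 13 of 24 alternative settings, among them the removal of WT_4, WT_7, WT_46, WT_288, CBP-KO_53 or any p300-KO library, with the highest adjusted p, 0.154, without p300-KO_287.

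Of the 4 H3K4 erasers, Kdm5b had the largest change of all 40 members in both knockouts. It encodes a JmjC demethylase of H3K4 trimethylation, also called PLU-1 or JARID1B. WT_4, WT_7, WT_41, WT_46 and WT_288 held 217, 193, 371, 143 and 201 normalized counts, CBP-KO_1, CBP-KO_53 and CBP-KO_55 held 574, 752 and 439, and p300-KO_18, p300-KO_287 and p300-KO_289 held 911, 1079.5 and 897. The 3 groups did not overlap, WT_41 was the highest WT library and CBP-KO_55 the lowest CBP-KO library. The change was 1.42 ± 0.25 in CBP-KO (adjusted p = 0.00439) and 2.16 ± 0.25 in p300-KO (adjusted p = 0.000215), a fold of 2.68 and 4.47. Between the knockouts the difference of -0.74 ± 0.28 did not pass (95% interval -1.34 to -0.13, adjusted p = 0.121). It passed without WT_41 (adjusted p = 0.0438) and when only the knockouts were fitted (0.0427). Among Xist-high libraries the means were 185 in 3 WT, 596 in 2 CBP-KO and 897 in 1 p300-KO library, and among Y-high libraries 286 in 2 WT, 574 in 1 CBP-KO and 1079.5 in 1 p300-KO library.

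**Figure D4:**
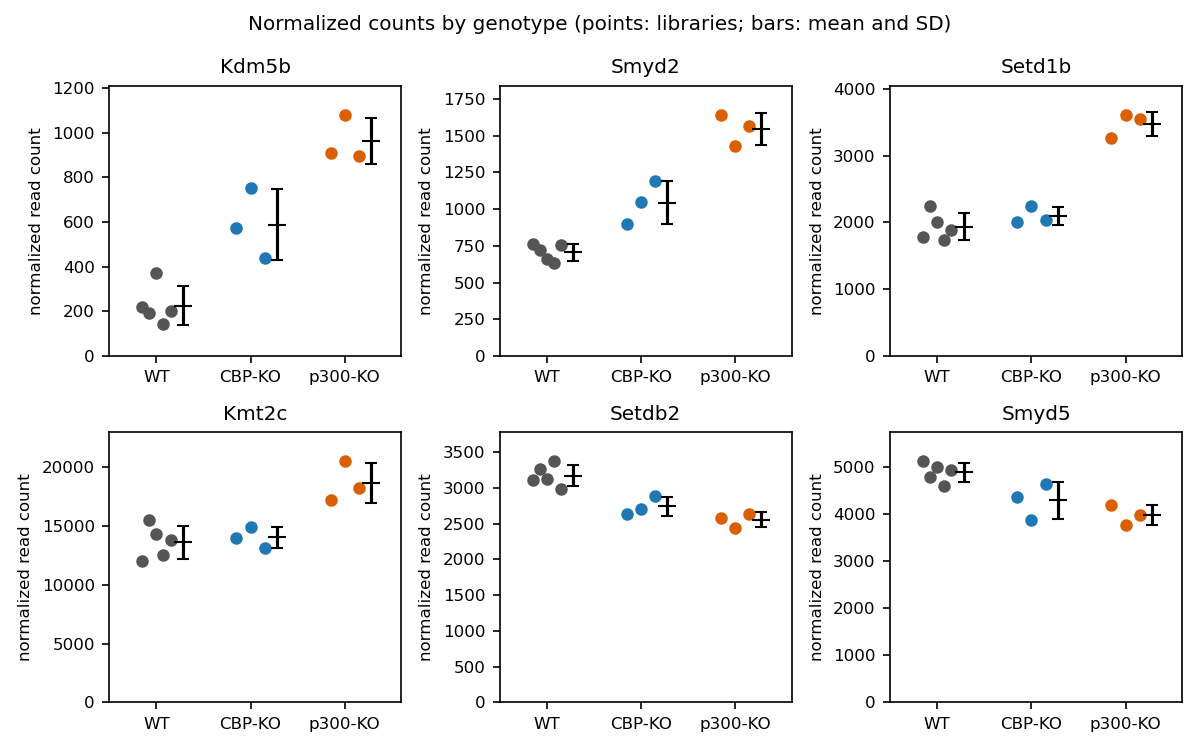
Normalized read count of 6 members in each library (points), with group mean and SD (bars), on axes that start at 0. Kdm5b and Smyd2 rise from WT through CBP-KO to p300-KO, and Setd1b and Kmt2c stand apart in p300-KO alone. Setdb2 and Smyd5 have their lowest mean in p300-KO, with libraries that overlap those of CBP-KO.

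Its paralog Kdm5a, which acts on the same mark, passed in no comparison (log2 0.10 in CBP-KO and 0.16 in p300-KO, adjusted p = 0.398 and 0.157). Kdm1a (LSD1), the amine oxidase that removes H3K4 mono- and dimethylation, stood at 8783, 8218, 8067, 7804 and 8351.5 in WT, 8733, 8958 and 9457 in CBP-KO and 9422, 8969 and 9534 in p300-KO. All p300-KO libraries lay above all WT libraries, and the CBP-KO libraries overlapped both. The change was 0.18 ± 0.05 in p300-KO (adjusted p = 0.0429) and 0.13 in CBP-KO (adjusted p = 0.133). The p300-KO call was lost in 13 of 24 settings, among them the removal of any of 8 libraries (all but WT_4, CBP-KO_1 and CBP-KO_55, with an adjusted p of up to 0.146). Kdm1b (LSD2), its relative found at gene bodies, stood at 6076, 7214, 5572, 6749 and 7607 in WT, 8340.0, 7472 and 7607 in CBP-KO and 4914, 6535 and 5835 in p300-KO. Neither knockout passed against WT (log2 0.24 and -0.21), and CBP-KO was above p300-KO without overlap (0.45 ± 0.12, adjusted p = 0.0358). That difference was 0.34 without p300-KO_18 (adjusted p = 0.129), and the call was also lost without CBP-KO_1, CBP-KO_53, CBP-KO_55 or p300-KO_289. The exons of Kdm1b overlap those of Dek over 9.19% of their length.

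For H3K4, the mean log2 level of the 6 writers minus that of the 4 erasers was 2.09 ± 0.19 (SD) over the WT libraries, 1.65 ± 0.06 over CBP-KO and 1.75 ± 0.04 over p300-KO. Only members enter this difference, and each has equal weight. Kdm5c, an H3K4 eraser outside the member list, is left out (16018 ± 3369 normalized counts in WT). WT ran from 1.89 to 2.36, and all 6 knockout libraries lay between 1.597 and 1.796. Without Kdm5b the difference was 0.76 ± 0.20 in WT, 0.62 ± 0.08 in CBP-KO and 0.94 ± 0.05 in p300-KO, and the groups overlapped, with WT from 0.55 to 0.98. Without that eraser the p300-KO mean lay above the WT mean and the CBP-KO mean below it.

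**Figure D5:**
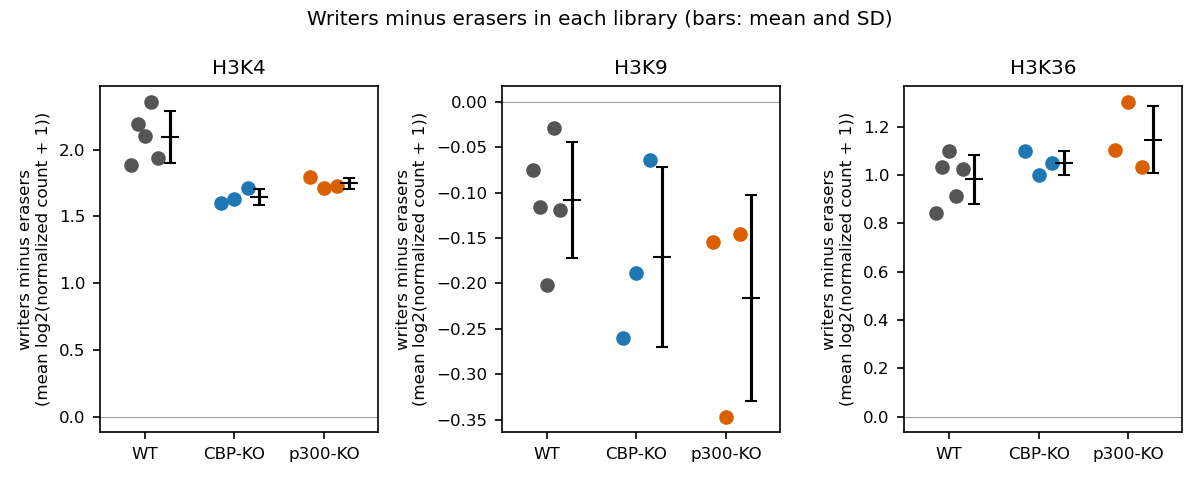
Mean log2(normalized count + 1) of the members sorted as writers minus that of the members sorted as erasers of H3K4, H3K9 and H3K36, in each library (points), with group mean and SD (bars). In the H3K4 panel all knockout libraries lie below the WT libraries, from 1.597 to 1.796 against 1.89 to 2.36, and in the other panels the groups overlap.

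Among the 6 H3K9 writers, Setdb2 was the member that passed, and it was lower in both knockouts. It encodes a SET-domain protein that has been tied to H3K9 methylation in immune cells. Its count was 3116, 3269.9, 3118, 3369 and 2979 in WT, 2631, 2705 and 2887 in CBP-KO, and 2583, 2444 and 2641 in p300-KO. Every knockout library lay below every WT library. The change was -0.31 ± 0.06 in p300-KO (adjusted p = 0.00518) and -0.21 ± 0.06 in CBP-KO (adjusted p = 0.0464). The CBP-KO call was lost in 15 of 24 settings, among them the removal of WT_4, WT_7, WT_41, WT_46, CBP-KO_1, CBP-KO_53, CBP-KO_55, p300-KO_18 or p300-KO_289, with an adjusted p of up to 0.163. The difference between the knockouts did not pass (0.10, 95% interval -0.04 to 0.24).

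The other H3K9 writers were Setdb1, which acts with TRIM28 on repeats, the heterochromatin enzymes Suv39h1 and Suv39h2, and the partners Ehmt1 and Ehmt2. Their changes lay between -0.03 and 0.09 in CBP-KO and between -0.16 and 0.06 in p300-KO. The lowest of these was Suv39h1 in p300-KO (log2 -0.16, adjusted p = 0.0901). Exons of Gm14820 overlap 14.6% of the exon length of Suv39h1.

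Of the 8 H3K9 erasers, Kdm4b was higher in CBP-KO. Kdm4b encodes a JmjC demethylase of H3K9 trimethylation. It stood at 2779.8, 2983, 3219.9, 2866 and 2684 in WT, 3678, 3715 and 3353 in CBP-KO and 3356, 3209.7 and 3393 in p300-KO. The CBP-KO libraries all lay above WT, while the lowest p300-KO library lay just under the highest WT library, WT_41. The change was 0.30 ± 0.07 in CBP-KO (adjusted p = 0.0141, and 0.0797 without CBP-KO_53) and 0.19 ± 0.07 in p300-KO (adjusted p = 0.0781, and 0.0353 without WT_41). The knockouts did not differ past the threshold (0.11, adjusted p = 0.399). In p300-KO 0 of the 8 H3K9 erasers passed with limma, with 4 at an unadjusted p below 0.05, 0 by edgeR and 2 by DESeq2.

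Kdm4a and Kdm4c, the paralogs of Kdm4b, had changes between -0.08 and 0.10. Jmjd1c, a JmjC protein of the KDM3 family, stood at -0.26 in CBP-KO (adjusted p = 0.0808, and 0.0207 without WT_46) and -0.14 in p300-KO. Its relative Kdm3a stood at 0.17 and -0.10, and Kdm3b at -0.01 and 0.14. Exons of Gm26538 overlap 24.6% of the exon length of Kdm3b. Kdm7a, an eraser of H3K9 and H3K27 dimethylation, stood at 0.07 and 0.29 (adjusted p = 0.125 in p300-KO), and its relative Phf2 at 0.07 and -0.11. The H3K9 writers minus erasers stood at -0.11 ± 0.06 in WT, -0.17 ± 0.10 in CBP-KO and -0.22 ± 0.11 in p300-KO, within the spread of the libraries.

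Nsd1, which places H3K36 dimethylation, was the called member of the 3 H3K36 writers. It stood at 28635, 30595, 31094, 29019 and 28500.5 in WT, 32203, 33261 and 30845 in CBP-KO and 31715, 34498.5 and 33692 in p300-KO. The p300-KO libraries were all above WT, and the CBP-KO libraries overlapped both. The change was 0.17 ± 0.05 in p300-KO (adjusted p = 0.0437) and 0.12 in CBP-KO (adjusted p = 0.18), and the p300-KO call was lost in 14 of 24 settings, among them the removal of any of 8 libraries (all but WT_41, CBP-KO_55 and p300-KO_18), with an adjusted p of up to 0.149. Setd2, the H3K36 trimethylase, stood at -0.04 in CBP-KO (95% interval -0.17 to 0.08) and -0.02 in p300-KO (-0.14 to 0.10). Ash1l stood at -0.10 and 0.14.

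The H3K36 erasers Kdm2a and Kdm2b and the H3K79 writer Dot1l passed in no comparison. Kdm2b, which recruits a Polycomb complex to CpG islands, stood at 6621 ± 378 in WT, 5835.0 ± 189 in CBP-KO and 6417 ± 364 in p300-KO (log2 -0.18 and -0.04, adjusted p = 0.0804 and 0.699), and DESeq2 called it in CBP-KO (adjusted p = 0.0392) while edgeR did not. Dot1l stood at 14763 ± 680.2, 15445 ± 1080.4 and 14299 ± 572 (log2 0.06 and -0.05, adjusted p = 0.575 and 0.683). For H3K36 the writers minus Kdm2a and Kdm2b were 0.98 ± 0.10 in WT, 1.05 ± 0.05 in CBP-KO and 1.15 ± 0.14 in p300-KO, with overlapping libraries. Kdm4a, Kdm4b and Kdm4c were sorted as H3K9 erasers only and do not enter the H3K36 difference.

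Kdm6b (JMJD3), the eraser of H3K27 trimethylation among the members, differed between the knockouts. It stood at 2515, 2441, 2629, 2068 and 2328 in WT, 1972, 2068 and 2162 in CBP-KO and 2635, 3011 and 2510.4 in p300-KO. CBP-KO and p300-KO did not overlap, and the WT libraries reached into both ranges. CBP-KO was lower than p300-KO by -0.39 ± 0.09 (adjusted p = 0.0217). Against WT the values were -0.21 in CBP-KO (adjusted p = 0.156, and 0.0464 without WT_46) and 0.18 in p300-KO (adjusted p = 0.194). The difference between the knockouts lost its call without CBP-KO_1, CBP-KO_53, p300-KO_18 or p300-KO_287, with an adjusted p of up to 0.0819. A fit that left out p300-KO_18 and also had a covariate for Xist-high against Y-high libraries gave 0.0607, beside 0.0527 without p300-KO_18 alone.

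The 3 SMYD methyltransferases, SET enzymes with a MYND zinc finger, moved in different directions in p300-KO. Smyd2, which methylates p53 and other proteins besides histones, was higher in both knockouts. The WT libraries held 763, 724, 661, 632 and 753 normalized counts, CBP-KO 898, 1046 and 1189, and p300-KO 1642, 1427 and 1564. The 3 groups did not overlap. The change was 0.56 ± 0.10 in CBP-KO (adjusted p = 0.00553) and 1.13 ± 0.10 in p300-KO (adjusted p = 4.7e-05), and CBP-KO was lower than p300-KO by -0.57 ± 0.11 (adjusted p = 0.00843). All 3 calls of Smyd2 held in all 24 settings. Among Xist-high libraries the means were 706 in 3 WT, 1117 in 2 CBP-KO and 1564 in 1 p300-KO library, and among Y-high libraries 707 in 2 WT, 898 in 1 CBP-KO and 1427 in 1 p300-KO library. Exons of Gm37422 cover 30.0% of the exon length of Smyd2. The library kit does not keep strand, so reads of the pair in that stretch cannot be told apart.

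Smyd5 was lower in p300-KO. It stood at 5123, 4794, 5001, 4590.5 and 4935 in WT, 4360.1, 3880.5 and 4641 in CBP-KO and 4190.2, 3777 and 3992 in p300-KO. All p300-KO libraries lay below WT, and CBP-KO_55 lay inside the WT range. The change was -0.29 ± 0.07 in p300-KO (adjusted p = 0.0117, and 0.056 without p300-KO_287) and -0.19 ± 0.07 in CBP-KO (adjusted p = 0.0966). The difference of Smyd5 between the knockouts did not pass (0.10, adjusted p = 0.412). Smyd3 stood at -0.18 and -0.22 (adjusted p = 0.303 and 0.164), so that 1 of the 3 SMYD members rose and 1 fell in p300-KO.

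The arginine methyltransferases did not pass in any comparison: with limma 0 of 3 did, with 1 at an unadjusted p below 0.05 between the knockouts, where DESeq2 called 1 and edgeR 0. Carm1, a coactivator enzyme known to bind and methylate CREBBP and EP300, stood at 6345 ± 293 in WT, 5910.1 ± 248 in CBP-KO and 6668 ± 238 in p300-KO. It was 0.17 lower in CBP-KO than in p300-KO on the log2 scale (-0.17 ± 0.06, 95% interval -0.30 to -0.05, adjusted p = 0.0855). Exons of Yipf2 overlap 21.1% of its exon length. Prmt5, the main enzyme of symmetric arginine methylation, stood at -0.08 (95% interval -0.25 to 0.09) in CBP-KO and -0.04 (-0.21 to 0.14) in p300-KO, and Prmt1 at -0.03 (-0.23 to 0.16) and -0.01 (-0.20 to 0.18). Jmjd6, a JmjC lysyl hydroxylase, stood at 3632 ± 309 in WT, 3841 ± 519 in CBP-KO and 3412 ± 414 in p300-KO (log2 0.08 and -0.09).

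Members varied between WT libraries about as much as genes of similar mean. Their median WT coefficient of variation was 6.53%, beside 11.01% over all genes tested, and 19 of the 40 lay above the median of 500 genes of similar mean. Kdm5b had the highest at 38.3%, with 12.3% in genes of similar mean, followed by Kmt2d, Kmt2a, Kdm3a (16.4%) and Kdm7a (13.2%).

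Other methyl enzymes were taken from a list of 37 genes. In CBP-KO 2 were higher, Prmt2 and Kmt5a, and 0 lower, beside 3.48% and 4.88% of all genes. In p300-KO 5 were higher (Prmt2, Ezh1, Eef1akmt1, Setd7 and Kmt5b) and 1 was lower (Kdm8), beside 5.84% and 6.09%. Between the knockouts 0 were higher and 2 lower in CBP-KO (Ezh1 and Eef1akmt1), beside 4.79% and 4.63%. The call of Eef1akmt1 between the knockouts (log2 -0.56, adjusted p = 0.0488) was lost in 13 of 24 settings, among them the removal of WT_7, WT_41, WT_288 or any knockout library. That of Setd7 in p300-KO (log2 0.25, adjusted p = 0.0321) was lost in 8, among them the removal of WT_4, WT_41, WT_288, p300-KO_287 or p300-KO_289. Setd7 and Kmt5b fall outside the rule for naming genes and were chosen after their values were seen. Over both directions, limma found 10 of the 37 at an unadjusted p below 0.05 in CBP-KO and 10 between the knockouts. Also over both directions, edgeR and DESeq2 called 2 and 6 in CBP-KO and 2 and 2 between the knockouts.

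Prmt2, an arginine methyltransferase and nuclear receptor coactivator, had the largest change of that list. It stood at 217, 153, 203, 192 and 165 in WT, 461, 419 and 371 in CBP-KO and 402, 499 and 427 in p300-KO. All 6 knockout libraries lay above all WT libraries, with changes of 1.17 ± 0.14 (adjusted p = 0.000501) and 1.25 ± 0.14 (adjusted p = 0.000188). The difference between the knockouts was -0.09 (adjusted p = 0.789). Ezh1, the Polycomb writer of H3K27 of resting cells, stood at 2179 ± 119 in WT, 2146 ± 167 in CBP-KO and 2832 ± 133 in p300-KO (log2 0.38 in p300-KO, adjusted p = 0.00405, and -0.40 between the knockouts, adjusted p = 0.00702). Its paralog Ezh2, of high expression in germinal centers, stood at -0.03 in CBP-KO and -0.12 in p300-KO (adjusted p = 0.828 and 0.196). Eef1akmt1, which methylates elongation factor eEF1A, stood at 397 ± 72.5 in WT and 628 ± 54.7 in p300-KO (log2 0.68, adjusted p = 0.00984, and 0.0509 without p300-KO_289). Kdm8, a JmjC protein, was lower in p300-KO (log2 -0.29, adjusted p = 0.0191, and 0.0821 without p300-KO_287).

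No member is an established writer of H4K20. From the list of other enzymes, Kmt5a, the H4K20 monomethylase, was higher in CBP-KO (8846 ± 489 in WT, 10668 ± 369 in CBP-KO, log2 0.27, adjusted p = 0.0361), and Kmt5b, which extends that mark, in p300-KO (log2 0.28, adjusted p = 0.0431). Kmt5c, the paralog of Kmt5b, stood at 0.15 and 0.11 (adjusted p = 0.22 and 0.354). The calls of Kmt5a and Kmt5b were lost in 10 and 14 of the 24 settings.

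Partner and methyl donor genes came from 5 lists with 50 genes. In CBP-KO 3 of the 50 were higher and 0 lower, beside 3.48% and 4.88% of all genes: Rcor3, Rcor1 and Gse1, which are on the list of 9 LSD1 partners. Over both directions, limma found 10 of the 50 at an unadjusted p below 0.05, and edgeR and DESeq2 called 3 and 4. Rcor3, a CoREST scaffold, stood at 1082, 1218, 1232, 1291 and 1206 in WT, 1734, 1759.7 and 1670.4 in CBP-KO and 1324, 1524 and 1422 in p300-KO. The 3 groups did not overlap, with a change of 0.52 ± 0.07 in CBP-KO (adjusted p = 0.00125). Rcor1 (log2 0.25, adjusted p = 0.0276) lost its call without WT_4, WT_7, CBP-KO_1, CBP-KO_53 or CBP-KO_55, with an adjusted p of up to 0.104, and Gse1 (log2 0.18, adjusted p = 0.05) in 18 of 24 settings.

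In p300-KO 4 of the 50 were higher and 2 lower, beside 5.84% and 6.09% of all genes, so that the share called was near that over all genes. Higher were Phf21a (BHC80), the reader of unmethylated H3K4 in LSD1 complexes (log2 0.39, adjusted p = 0.0166, and 0.0749 without p300-KO_287), Btg2 (0.34), the PRMT1 partner and antiproliferative protein, Ncoa6 (0.26), a subunit of the KMT2C and KMT2D complexes, and Mtr (0.21), methionine synthase. Lower were Btg1, a relative of Btg2, at -0.36 (adjusted p = 0.0139, and 0.073 without p300-KO_18) and Mat2a, which makes the methyl donor S-adenosylmethionine, at -0.17 (adjusted p = 0.0499, lost in 16 of 24 settings). Btg2, Ncoa6 and Mtr each lost their call without p300-KO_287 or p300-KO_289, with an adjusted p of up to 0.0809, 0.0883 and 0.0778, and Mtr also without WT_41 (0.0546) or p300-KO_18 (0.0769). Between the knockouts 3 of the 50 were higher and 1 lower in CBP-KO, beside 4.79% and 4.63% of all genes. Higher in CBP-KO were Btg1 (0.40), Paxip1 (0.24), another KMT2C and KMT2D subunit, and Gse1 (0.23), and lower was Ahcyl2 (-0.42). These 4 each lost their call without CBP-KO_1 or p300-KO_18, Btg1 also without CBP-KO_53, Paxip1 also without CBP-KO_55 or p300-KO_287, Gse1 also without CBP-KO_53, CBP-KO_55 or p300-KO_289, and Ahcyl2 also without CBP-KO_55 or p300-KO_289. The highest adjusted p over these removals was 0.1, for Ahcyl2. None of the 10 H3K9 and heterochromatin partners passed in any comparison with limma, with 0, 2 and 1 of them at an unadjusted p below 0.05 in CBP-KO, in p300-KO and between the knockouts, 0 by edgeR in each, and 0, 1 and 1 by DESeq2.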

How the data were processed

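RNA from sorted mouse germinal center B cells was sequenced as 11 libraries with a kit that, per the labels' protocols, was TruSeq RNA v2, a preparation without strand information. The submitters' processing notes name CASAVA 1.8, HISAT2, featureCounts, DESeq2 and the mm10 build, with no parameters. The signal values deposited by the authors are reads counted per gene and divided by 1 size factor per library. Within a tolerance of 1e-06, 100% of values were whole multiples of a step, so whole reads were recovered and summed to give the depth. Groups came from the labels, and 0 other value columns were present.

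limma 3.58.1 (R 4.3.3) was run on log2(value + 1) with a variance trend, in 1 fit of the 3 groups, on 16515 genes with a mean of at least 10, as a two-sided test, and p values were adjusted by Benjamini-Hochberg over all genes tested, with a threshold of 0.05. Every adjusted p is from limma unless another tool is named. Each fold change is a difference of mean log2(value + 1), and ± is the SE for a fold change and the SD for a level, and intervals cover 95%. Members past the threshold are given in every library. Role classes with none are given by the member with the smallest p. Of other lists, up to 4 called genes are named. Members, lists and rules were chosen with earlier results of these data known. Role classes got no test. Exon lengths and overlaps came from GENCODE on GRCm38, the same build as mm10. Alternatives changed the pseudocount, filter, normalization, variance model, libraries and a covariate, or ran edgeR 4.0.16 and DESeq2 1.42.0 on recovered reads. The alternatives for genes that are not members were added after seeing the data. The procedure was tested on simulated data. Figures were drawn in Python 3.11.15 with matplotlib 3.10.9 (pandas 2.3.3).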

Additional observations from a re-analysis of the deposited data

How the results depend on the processing

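Of 18 calls of members, 9 held in all 24 alternatives (Smyd2 in all 3 comparisons, Kdm5b in both knockouts against WT, Setd1b in p300-KO and between the knockouts, and Kmt2c and Setdb2 in p300-KO), 9 were lost in at least 1, and 0 reversed. Of 102 results of members that were not called, 12 were called in at least 1 alternative. The number of members called in CBP-KO was 4, and 9 with library weights. Leaving out 1 library gave from 2 to 5. In p300-KO it was 9, and from 5 to 9 leaving out 1 library. Between the knockouts it was 5, and 3 without the variance trend, 8 with library weights, 8 with DESeq2, and 3 with the covariate for Xist-high against Y-high libraries in a fit that also left out p300-KO_18, whose removal alone gave 3. Leaving out 1 library gave from 3 to 6. The cause was not tested. Over all genes, leaving out 1 library gave from 642 to 1541 calls in CBP-KO, 1169 to 2027 in p300-KO and 745 to 1954 between the knockouts. Of 23 calls in the other lists, 5 held in all alternatives (Prmt2 in both knockouts, Rcor3 in CBP-KO, and Ezh1 in p300-KO and between the knockouts), 18 were lost in at least 1, and 0 reversed. No paired analysis was possible because no library number in the labels occurs in more than 1 group. Kdm5b is read at 143 to 371 counts in WT, the lowest of the members. Its SD was 86.1 counts in WT, 157 in CBP-KO and 102 in p300-KO. The part of these spreads in the comparison between the knockouts was not tested.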

Other observations

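Kdm5c and Kdm6a are X-linked erasers of H3K4 and H3K27 methylation that are known to escape X inactivation. Both were higher in every Xist-high library than in every Y-high library. Kdm6a ran from 10895 to 12739 normalized counts in the 6 Xist-high libraries and from 6407 to 7101 in the 4 Y-high libraries, with 8806 in p300-KO_18. Kdm5c ran from 17872 to 22289 and from 11980.4 to 13793, with 17173 in p300-KO_18. Among Xist-high libraries, Kdm6a reached 12010 in WT and stood at 12322 and 12089 in CBP-KO and 12739 in p300-KO_289. Among Y-high libraries it reached 6809 in WT and stood at 7101 in CBP-KO_1 and 6909 in p300-KO_287. Kdm5c was highest in p300-KO in both sets, at 22289 and 13793, with WT up to 18751 and 12740. Its CBP-KO values were 20071 and 19971 in Xist-high libraries and 12653 in the Y-high library. Neither passed against WT (Kdm6a log2 0.15 and 0.00, Kdm5c 0.13 and 0.15 in CBP-KO and p300-KO), and each fit carries a standard error of 0.20 or more. These fits had no term for Xist-high against Y-high libraries, so they do not test genotype within each set.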
